A study of Homo sapiens with 12 samples.

Results

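The insulin-like growth factor (IGF) binding proteins were examined as a family in MDA-MB-231 cells, a triple-negative breast cancer line, after knockdown of NELFA, of YAP1 or of both. The members were taken by gene symbol from the count table and are IGFBP2, IGFBP3, IGFBP4, IGFBP5, IGFBP6 and IGFBP7, 6 of 58051 genes listed. Each of the 4 groups had 3 libraries: siControl, which received a non-targeting siRNA pool, the single knockdowns siNELFA and siYAP, and the double knockdown siNELFA+siYAP. All cells were transfected with siRNA pools, at 50 to 100 nM per the labels, so that siControl cells also carried siRNA and reagent. The labels give RNA at 48 h and 72 h without saying which library is which, and the methods give 72 h. The methods name 3 independent biological replicates, and all came from a single cell line. The library names give each siControl, siNELFA and siYAP library a number of its own, while the 3 siNELFA+siYAP libraries share the number 1 and differ by a second number, so these may be 3 libraries of 1 culture. The standard errors and p-values of the double knockdown then measure a spread that may be technical. Its fold changes would then also hold any difference between that culture and the others, which cannot be told apart from the siRNA.

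IGF-binding proteins are secreted proteins that hold IGF1 and IGF2 outside the cell and thereby limit, deliver or prolong their signal through the IGF1 receptor. Proteases such as pappalysin release the ligand by cutting the binding protein. IGFBP3 is the main carrier in blood and also acts without IGF, IGFBP4 mostly restrains IGF and is the classic substrate of pappalysin, IGFBP6 prefers IGF2, and IGFBP7 is a more distant relative that binds IGF weakly and also binds insulin. NELFA is a subunit of the negative elongation factor that holds RNA polymerase II shortly after the start of a gene, and YAP1 is a coactivator that works mainly through the TEAD DNA-binding factors.

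The members are scattered over 5 chromosomes. In GENCODE 44 on GRCh38, IGFBP3 (ENSG00000146674) lies at chr7:45912245-45921874 on the minus strand, 18.6 kb from its relative IGFBP1. IGFBP4 (ENSG00000141753) lies at chr17:40443450-40457725 on the plus strand, and IGFBP6 (ENSG00000167779) at chr12:53097436-53102345 on the plus strand. IGFBP7 (ENSG00000163453) lies at chr4:57030773-57110385 on the minus strand. IGFBP2 (ENSG00000115457, chr2:216632828-216664436, plus strand) and IGFBP5 (ENSG00000115461, chr2:216672105-216695549, minus strand) are neighbours, 7.67 kb apart and facing each other. The exons of IGFBP7 share 260 bases with those of POLR2B, an RNA polymerase II subunit gene on the opposite strand, and 94 bases with IGFBP7-AS1, an antisense RNA. Whether the counting used strand is not stated, so reads from these shared stretches cannot be assigned to one gene with certainty.

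RefSeq promoter sequences (GRCh38.p14) were found for 5 of the 6 members, all but IGFBP7. The 250 bases before the start were searched on both strands for GGAATG (the TEAD core), TGANTCA (AP-1), TATAAA (the TATA box) and GGGCGG (the GC box, CCGCCC on the other strand). The promoters of the 2 members whose levels differed most clearly in opposite directions, IGFBP3 and IGFBP4, are shown with matches in capitals. The IGFBP3 window is chr7:45921273-45921522 (minus strand) and the IGFBP4 window chr17:40443200-40443449 (plus strand).
IGFBP3: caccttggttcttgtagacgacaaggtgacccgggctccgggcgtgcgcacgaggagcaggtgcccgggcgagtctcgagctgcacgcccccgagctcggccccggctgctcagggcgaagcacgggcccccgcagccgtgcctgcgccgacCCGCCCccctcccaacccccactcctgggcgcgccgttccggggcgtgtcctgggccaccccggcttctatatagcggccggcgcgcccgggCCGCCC
IGFBP4: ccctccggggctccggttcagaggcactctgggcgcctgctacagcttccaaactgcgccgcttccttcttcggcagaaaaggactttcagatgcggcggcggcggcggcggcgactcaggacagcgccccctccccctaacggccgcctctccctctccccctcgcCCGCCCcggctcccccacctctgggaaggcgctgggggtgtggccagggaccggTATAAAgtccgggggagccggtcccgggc
The IGFBP3 window was 76.0% G and C and held 2 GC boxes. The IGFBP4 window was 71.6% G and C and held 1 GC box and a TATA box 24 to 29 bases before the start. Only the exact word TATAAA was searched, and the IGFBP3 window holds the similar run tatata, which was not counted. IGFBP6 held the TEAD core 96 to 101 bases before its RefSeq start, in a stretch at chr12:53097556-53097581 (plus strand) that an alternative first exon also covers, shown with the core in capitals.
IGFBP6: cccagtttagGGAATGcccctgccct
Of the members with no or almost no reads, IGFBP5 also held a TEAD core and IGFBP2 held GC boxes at 2 of its 3 starts. Over 35116 promoter windows of the same length, 11.9% held the TEAD core, 6.57% the AP-1 motif, 10.7% the TATA box and 42.6% the GC box, so each of these words is common. No member window held a match to the AP-1 motif.

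The libraries held 9608145 to 18803104 counts. Levels are given as CPM, counts scaled to a common library size with TMM normalization over the 12 libraries, and as TPM, the deposited transcript abundances that are scaled by length and to one total per library, where genes are compared. NELFA averaged 27.0 CPM (SD 1.47, n = 3) in siControl and 26.8 CPM (SD 5.69) after siYAP, against 8.71 CPM (SD 1.43) after siNELFA and 7.06 CPM (SD 0.949) after both. YAP1 averaged 274 CPM (SD 27.0) in siControl and 264 CPM (SD 22.1) after siNELFA, against 42.8 CPM (SD 4.27) after siYAP and 41.5 CPM (SD 2.01) after both, so each target was low where its siRNA was given. VIM, CD44, AXL, EGFR and CAV1, taken as markers of this line, were above 267 CPM in every library. ESR1 and PGR were at or below 0.433 CPM, and these values fit the label of the line. VIM and AXL were lower in replicate 1 than in replicates 2 and 3 in siControl, siNELFA and siYAP. CD44 was higher there, and CAV1 showed no single direction. EGFR was lower in replicate 1 than in replicates 2 and 3 in siControl and siNELFA. In siYAP its replicate 1 level lay between theirs (574 CPM, against 541 and 791 CPM). Of the markers of other cell types, ALB was at 0 and PTPRC, CDH5 and MYH7 were at or below 0.379 CPM. PECAM1 had reads in every library, at 1.77 to 8.88 CPM, highest in siControl replicate 1. CDH1, the epithelial cadherin that this line lacks, went against the label in 3 libraries, the replicate 1 libraries of siControl (24.9 CPM), siNELFA (46.6 CPM) and siYAP (15.99 CPM), and was at or below 0.942 CPM in the other 9. EPCAM, another epithelial gene, was at 15.3 to 18.0 CPM in these 3 libraries and at 4.67 to 9.45 CPM in the other 9. The epithelial keratin genes KRT8 (156 to 246 CPM) and KRT18 (137 to 193 CPM) were high in every library, and KRT8 was lower in replicate 1 than in replicates 2 and 3 in siControl, siNELFA and siYAP. The same 3 libraries had MALAT1, a nuclear non-coding RNA, as their most counted gene (3.14% to 4.41% of counts), while no gene exceeded 1.39% elsewhere. These libraries therefore stand apart, and the comparisons below are given with and without them or within replicate numbers. The part of these differences in the results was not tested.

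Of the 6 members, 4 were expressed. In siControl, IGFBP4 had the highest level per length, 437 ± 33.2 TPM (SD, n = 3), which was above 99.2% of 19960 protein-coding genes. IGFBP7 followed at 90.6 ± 48.3 TPM, IGFBP6 at 58.7 ± 13.4 TPM and IGFBP3 at 38.2 ± 35.7 TPM. IGFBP4 was apart from the others in every siControl library, the lowest of its values being 400.2 TPM. The ranges of IGFBP7 (57.6 to 146 TPM), IGFBP6 (47.2 to 73.4 TPM) and IGFBP3 (13.6 to 79.2 TPM) overlapped. Within each siControl library, IGFBP7 was above IGFBP3. The values were 146 against 79.2, 68.1 against 21.8 and 57.6 against 13.6 TPM in replicates 1, 2 and 3. IGFBP6 was below both in replicate 1, above both in replicate 2 and between them in replicate 3. Counts divided by the length of all GENCODE exons gave the order IGFBP4 (324 CPM per kb), IGFBP7 (44.5), IGFBP6 (22.1) and IGFBP3 (12.4). IGFBP5 had no count in any of the 12 libraries, where 3 counts, the limit that a count of 0 allows, would be 0.156 to 0.325 CPM. Low counts were mostly even, and if both mates of each pair were counted, the limit would be 6 counts, or 0.312 to 0.650 CPM. IGFBP2 had no count in 11 libraries and 4 counts (0.248 CPM) in siYAP replicate 3, to which a limit for a count of 0 does not apply. IGFBP5 was not detected at this depth, and IGFBP2 only by these few reads in 1 library. Neither passed the filter on low counts, so the 4 others are the members tested below.

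IGFBP3 was the most variable member. Its level was 121, 26.8 and 22.4 CPM in siControl replicates 1, 2 and 3, and 83.6, 16.3 and 7.35 CPM in siNELFA. It was 126, 27.0 and 13.6 CPM in siYAP, and 5.09, 8.08 and 5.90 CPM in siNELFA+siYAP. Replicate 1 was far above the others in the first 3 groups and not in the double knockdown. The 3 double knockdown libraries lay below every siControl library, as in 14.6% of genes, and below every siYAP library, as in 12.6%. They overlapped siNELFA.

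IGFBP4, the abundant member, was at 736, 620 and 789 CPM in siControl replicates 1, 2 and 3 and at 1453, 863 and 1101 CPM in siNELFA. It was at 977, 634 and 799 CPM in siYAP, and at 1080, 1143 and 1103 CPM in siNELFA+siYAP. Both groups with siNELFA lay entirely above siControl, as did 6.04% of genes in siNELFA and 15.1% in siNELFA+siYAP, while siYAP overlapped it. On the TPM scale the highest siControl library (464 TPM) and the lowest siNELFA library (460 TPM) just overlapped.

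IGFBP6 was at 22.5, 35.4 and 31.3 CPM in siControl replicates 1, 2 and 3 and at 45.6, 51.5 and 42.9 CPM in siNELFA. It was at 35.4, 49.2 and 46.4 CPM in siYAP, and at 43.2, 51.8 and 42.4 CPM in siNELFA+siYAP. The siNELFA libraries lay above all siControl libraries, as in 6.04% of genes, and so did the siNELFA+siYAP libraries, as in 15.1%. The siYAP replicate 1 library was level with the highest siControl library, both at 35.4 CPM.

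IGFBP7 was at 129, 65.6 and 63.3 CPM in siControl replicates 1, 2 and 3 and at 135, 65.0 and 66.9 CPM in siNELFA. It was at 123, 61.6 and 52.6 CPM in siYAP, and at 59.9, 62.4 and 61.4 CPM in siNELFA+siYAP. Apart from the 3 high replicate 1 libraries, its 9 values fell between 52.6 and 66.9 CPM. POLR2B, whose exons overlap those of IGFBP7, averaged 146 to 158 CPM in the 4 groups, and the antisense RNA IGFBP7-AS1 stayed at or below 1.09 CPM.

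**Figure D1:**
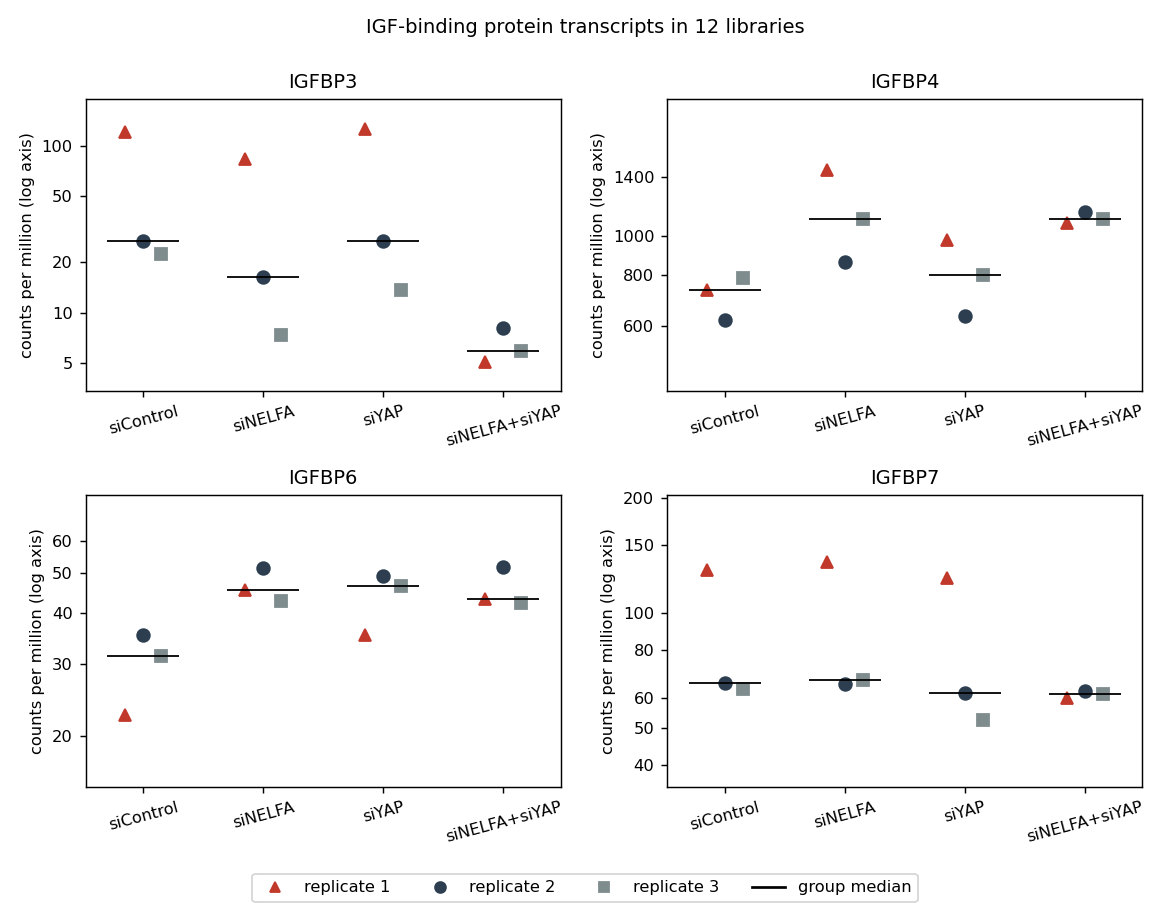
Level of the 4 expressed members in each of the 12 libraries, in CPM on a log axis, by siRNA group, with 1 point per library and a line at the group median. Replicate 1 of siControl, siNELFA and siYAP stands high for IGFBP3 (83.6 to 126 CPM) and IGFBP7 (123 to 135 CPM). IGFBP4 and IGFBP6 lie above siControl in both groups that received siNELFA, as do 6.04% of genes in siNELFA and 15.1% in siNELFA+siYAP. For IGFBP6 the siYAP libraries (35.4 to 49.2 CPM) overlap those groups.

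The shift of replicate 1 was separated from the siRNA groups by an edgeR quasi-likelihood F test of replicate number over the 9 libraries of siControl, siNELFA and siYAP, with group in the model. The adjusted p covers any difference among the 3 numbers, and the log2 difference of replicate 1 from the mean of the others is given beside it to describe its direction. Of the 4 members tested, 3 passed at a Benjamini-Hochberg adjusted p under 0.05, against a background of 45.4% of 18193 genes. IGFBP3 was 2.65 higher in replicate 1 than in the mean of replicates 2 and 3 on the log2 scale (SE 0.14, edgeR adjusted p = 1.50e-09), which is 6.28-fold. IGFBP7 was 1.07 higher (SE 0.09, adjusted p = 3.10e-07), or 2.10-fold, and IGFBP4 was 0.39 higher (SE 0.08, adjusted p = 7.25e-04). IGFBP6 differed by -0.31 (SE 0.12, adjusted p = 0.0600) and did not pass.

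For IGFBP3 and IGFBP7 the shift was seen alike in each of the 3 groups. Replicate 1 exceeded the mean CPM of replicates 2 and 3 by 4.91, 7.06 and 6.22 times for IGFBP3 in siControl, siNELFA and siYAP, and by 2.00, 2.05 and 2.15 times for IGFBP7. For IGFBP4 the ratios were less even, at 1.05, 1.48 and 1.36. In siNELFA+siYAP the ratios were 0.729 for IGFBP3 and 0.967 for IGFBP7, so the library labelled replicate 1 did not stand out there. The shift was wide over the transcriptome. The median absolute log2 difference was 0.473, 0.406 and 0.437 in the 3 groups and 0.0911 in the double knockdown, over 12971 genes.

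Among 22 tested genes of a list of 28 other genes of the IGF system, 12 (54.5%) passed the same test of replicate number, near the 45.4% of all genes. HTRA1, a secreted protease that cuts IGF-binding proteins, was 1.93 higher in replicate 1 on the log2 scale (SE 0.17, edgeR adjusted p = 5.12e-07), and INSR, the insulin receptor, was 1.55 higher (SE 0.09, adjusted p = 5.76e-09). CTSD, a lysosomal protease, was 1.11 higher (SE 0.11, adjusted p = 3.45e-06), and STC1, of the stanniocalcins that inhibit pappalysins, was 0.80 higher (SE 0.08, adjusted p = 3.05e-06). IGF2, the ligand, went the other way and was lower by 1.40 (log2 difference -1.40, SE 0.24, adjusted p = 4.92e-05), at 2.60, 2.49 and 3.97 CPM in replicate 1 of siControl, siNELFA and siYAP. Of the others that passed, IGF2R, GRB10 and HTRA3 stood higher in replicate 1 in all 3 groups, while LRP1 and PLAU stood on both sides of 0. PAPPA and ADAMTS1 were lower in replicate 1 than the mean of replicates 2 and 3, but replicate 3 was their highest in each group. ADAMTS1 replicate 1 was above replicate 2 in siControl (2.17 against 1.55 CPM) and siNELFA (2.65 against 1.86 CPM). PAPPA replicate 1 was above replicate 2 in siYAP (8.99 against 6.91 CPM). IGF1 had no count in any library.

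**Figure D2:**
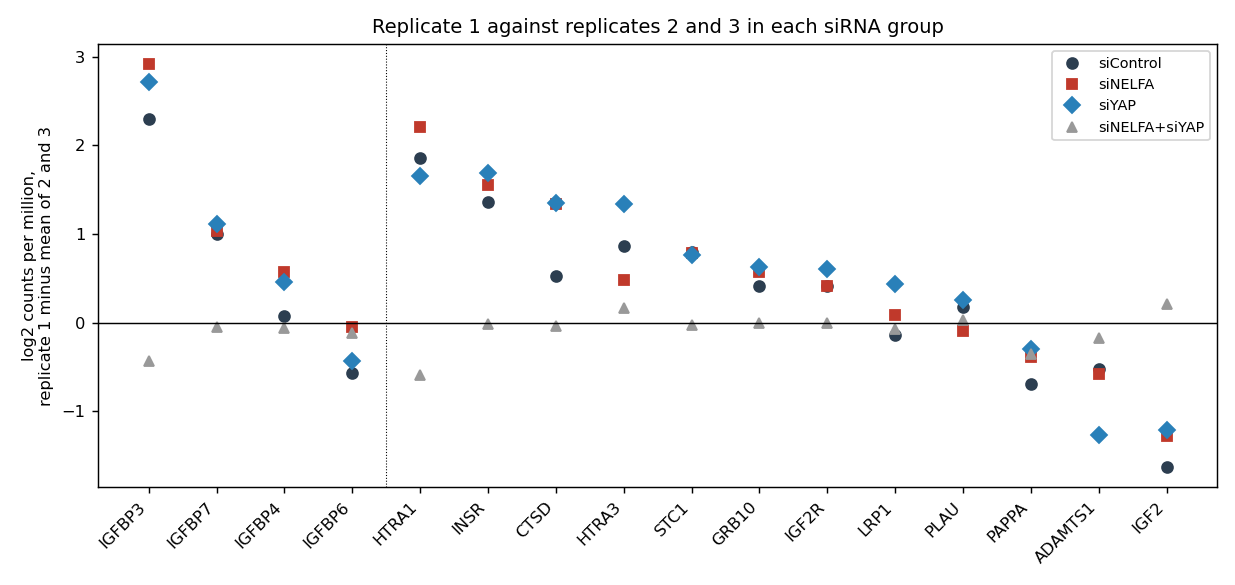
Log2 difference in CPM between replicate 1 and the mean of replicates 2 and 3 for the 4 expressed members, left of the dotted line, and for the 12 other IGF system genes that passed the test of replicate number, with 1 point per siRNA group. For IGFBP3 the points of siControl, siNELFA and siYAP lie between 2.29 and 2.91 and that of siNELFA+siYAP at -0.43.

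NELFA knockdown was compared with siControl first. Against the siControl library of the same replicate number, IGFBP4 CPM in siNELFA was 1.97, 1.39 and 1.40 times as high and IGFBP6 was 2.02, 1.46 and 1.37 times as high, both higher in 3 of 3 numbers. IGFBP3 was 0.692, 0.609 and 0.328 times as high, lower in 3 of 3, and IGFBP7 was 1.05, 0.992 and 1.06 times as high. Without regard to the numbers, edgeR on the 6 libraries called none of the 4 members at an adjusted p under 0.05, against 0.00564% of 17727 genes. The log2 fold change was 0.68 (SE 0.23) for IGFBP4, 0.65 (SE 0.21) for IGFBP6, -0.66 (SE 0.98) for IGFBP3 and 0.06 (SE 0.40) for IGFBP7, each with an edgeR adjusted p of 1.00. At an unadjusted p under 0.05, IGFBP4 and IGFBP6 passed, against 4.46% of genes. Both also lay entirely above siControl, as 6.04% of genes did.

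Because replicate 1 stood apart in both groups, the fit with replicate number as a block was also made. It called 3 of the 4 members against a background of 5.21%. That numbers 2 and 3 pair across groups is known from their labels only. IGFBP4 rose by 0.65 on the log2 scale (SE 0.11, edgeR adjusted p = 0.00473), or 1.57-fold. IGFBP6 rose by 0.67 (SE 0.14, adjusted p = 0.0192), or 1.59-fold. IGFBP3 fell, with a log2 fold change of -0.90 (SE 0.18, adjusted p = 0.0129), or to 0.535 of siControl. IGFBP7 changed by 0.05 (SE 0.10, adjusted p = 0.837), so that the block took away most of its spread without moving its value from near 0. With all 9 libraries of siControl, siNELFA and siYAP and the block, the same 3 members passed, against a background of 6.28%. The edgeR adjusted p was 0.00126 for IGFBP4, 0.00490 for IGFBP3 and 0.00772 for IGFBP6.

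These calls depended on the libraries used. In replicates 2 and 3 only, without the block, the log2 fold changes were 0.49 (SE 0.15) for IGFBP4, 0.51 (SE 0.15) for IGFBP6 and -1.05 (SE 0.31) for IGFBP3, and none passed (edgeR adjusted p of 0.210, 0.196 and 0.206, background 0.0996%). In the 9-library fit with the block, leaving out replicate number 1 kept all 3 calls (background 13.3%). Leaving out number 2 kept IGFBP3 and IGFBP4 (IGFBP6 adjusted p = 0.0918, background 1.29%), and leaving out number 3 kept IGFBP4 (IGFBP3 adjusted p = 0.0891, IGFBP6 adjusted p = 0.0529, background 1.19%). In the fit without the block, leaving out siControl replicate 1 alone turned the IGFBP3 value to 0.55, and leaving out siNELFA replicate 1 alone moved it to -2.26.

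**Figure D3:**
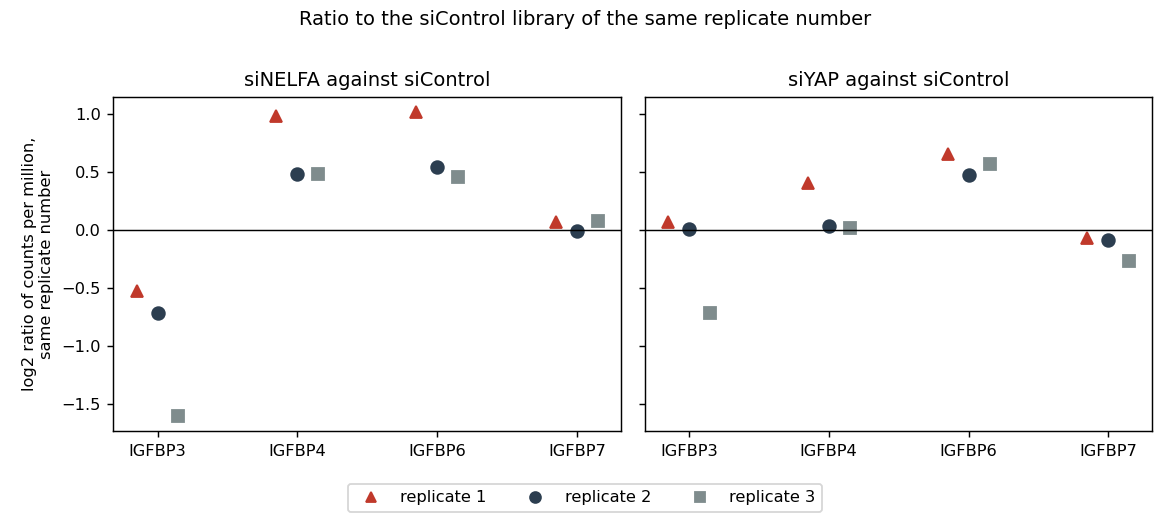
Log2 ratio of CPM to the siControl library with the same replicate number, for the 4 expressed members in siNELFA (left) and siYAP (right), with 1 point per replicate number. In siNELFA all 3 points of IGFBP4 and of IGFBP6 lie above 0 and all 3 of IGFBP3 below, while in siYAP the IGFBP6 points lie between 0.48 and 0.65 and the points of the other members between -0.72 and 0.41.

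Of the 22 other listed genes of the IGF system tested, none passed in siNELFA without the block and 1, PLAU, passed with it (4.55%, near the 5.21% of all genes). PLAU, which encodes urokinase, rose by 0.68 on the log2 scale (SE 0.09, edgeR adjusted p = 0.00220 with the replicate block). SHC1, an adaptor of growth factor receptors, was at 0.40 (SE 0.11, adjusted p = 0.0520) and passed in the 9-library fit (adjusted p = 0.0344). The receptors did not pass with the block, with log2 fold changes of -0.10 (SE 0.11) for IGF1R, -0.08 (SE 0.11) for INSR and 0.29 (SE 0.08, adjusted p = 0.0693) for IGF2R, which takes up IGF2. The adaptors IRS1 at -0.09 (SE 0.11) and IRS2 at -0.37 (SE 0.12) and the protease PAPPA at -0.29 (SE 0.21) did not pass either. With the block, the median log2 fold change was 0.35 over the 4 members and -0.08 over the 22 listed genes. Of the members 3 were higher and 1 was lower, so their median describes no shared change.

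YAP knockdown was then compared with siControl. IGFBP6 CPM was 1.57, 1.39 and 1.48 times that of the siControl library of the same number, higher in 3 of 3. IGFBP3 was 1.05, 1.01 and 0.608 times as high, IGFBP4 1.33, 1.02 and 1.01 times, and IGFBP7 0.952, 0.940 and 0.831 times. No member passed the adjusted test without the block (background 0.00578%) or with it (background 0.0173%), and IGFBP6 alone was under 0.05 unadjusted without the block (background 1.30%). The IGFBP6 log2 fold change was 0.57 (SE 0.23, edgeR unadjusted p = 0.0437, adjusted p = 1.00), and with the block it was 0.57 (SE 0.14, unadjusted p = 0.00229, adjusted p = 0.480). In the 9-library fit with the block, IGFBP6 had an edgeR adjusted p of 0.116 (background 0.187%). Leaving out replicate number 1 brought it to 0.00566 (background 1.10%), with a log2 fold change of 0.54 (SE 0.11). With the block, IGFBP3 was at -0.19 (SE 0.17), IGFBP4 at 0.16 (SE 0.10) and IGFBP7 at -0.13 (SE 0.12). No listed gene of the IGF system passed in either fit.

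The siNELFA and siYAP groups share their controls, so they were also set against each other directly. Without the block no member passed (background 0.0116%) and none was under 0.05 unadjusted (background 5.63%). With it 2 of 4 did, against a background of 15.8%. IGFBP3 was lower in siNELFA than in siYAP, with a log2 fold change of -0.72 (SE 0.11, edgeR adjusted p = 8.17e-05 with the replicate block), and IGFBP4 was higher by 0.49 (SE 0.08, adjusted p = 8.70e-05). IGFBP6 differed by 0.09 (SE 0.11, adjusted p = 0.638) and IGFBP7 by 0.18 (SE 0.09, adjusted p = 0.210). In the 9-library fit both calls held (background 6.57%). They also held there without replicate number 1 (background 14.8%), but both were lost without number 2 (adjusted p of 0.153 for IGFBP3 and 0.0729 for IGFBP4, background 1.55%) or number 3 (0.0794 and 0.134, background 0.768%).

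Of the 22 listed genes, 6 (27.3%, against 15.8% of all genes) passed between siNELFA and siYAP with the block, 1 higher and 5 lower in siNELFA. In the 9-library fit with the block 4 passed (18.2%, against 6.57% of all genes), and IRS1 and CTSD did not. The values that follow are from the 6-library fit with the block. PLAU was higher by 0.55 (SE 0.09, edgeR adjusted p = 8.04e-05). The adaptor genes IRS2 at -0.46 (SE 0.09, adjusted p = 0.00128) and IRS1 at -0.26 (SE 0.08, adjusted p = 0.0377) were lower. Lower too were the protease genes PAPPA at -0.77 (SE 0.20, adjusted p = 0.0111), HTRA3 at -0.83 (SE 0.22, adjusted p = 0.0120) and CTSD at -0.28 (SE 0.07, adjusted p = 0.0112).

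The library names give all 3 double knockdown libraries the number 1, so replicate 1 was handled by leaving it out. By name, their partner in each other group is the replicate 1 library, which fits on replicates 2 and 3 drop. The edgeR calls below on filtered counts all come from fits without that library. Whether number 1 is the right partner was not tested. If the 3 double knockdown libraries are of 1 culture, the differences below hold the culture as well as the siRNA. IGFBP3 in siNELFA+siYAP averaged 6.36 CPM, 0.0526 of the siControl replicate 1 level and 0.258 of the mean of siControl replicates 2 and 3. With all 6 libraries, the log2 fold change was -3.16 for IGFBP3 (SE 0.70, edgeR adjusted p = 0.0901), 0.63 for IGFBP4 (SE 0.12, adjusted p = 0.0735), 0.62 for IGFBP6 (SE 0.19, adjusted p = 0.155) and -0.49 for IGFBP7 (SE 0.29, adjusted p = 0.405). No member passed, against 0.428% of 17533 genes, while 3 passed at an unadjusted p under 0.05, against 18.5%. IGFBP4 and IGFBP6 lay entirely above siControl, as did 15.1% of genes, and IGFBP3 and IGFBP7 entirely below, as did 14.6%.

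With replicates 2 and 3 only, 3 of 4 members passed, against a background of 17.9%. IGFBP3 fell, with a log2 fold change of -1.82 (SE 0.19, edgeR adjusted p = 1.22e-04), or to 0.284 of siControl. IGFBP4 rose by 0.68 (SE 0.09, adjusted p = 6.68e-04) and IGFBP6 by 0.51 (SE 0.12, adjusted p = 0.0160). IGFBP7 was at -0.05 (SE 0.09, adjusted p = 0.790), and the mean of the double knockdown was 0.9504 of the siControl replicate 2 and 3 mean and 0.474 of siControl replicate 1. Leaving out siControl replicate 1 alone also called IGFBP3, IGFBP4 and IGFBP6 (background 24.4%), with IGFBP3 at -1.94 (SE 0.18, adjusted p = 2.14e-06). DESeq2 on all 6 libraries called IGFBP3 (adjusted p = 0.00417) and IGFBP4 (adjusted p = 0.00561), against 2.91% of genes.

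**Figure D4:**
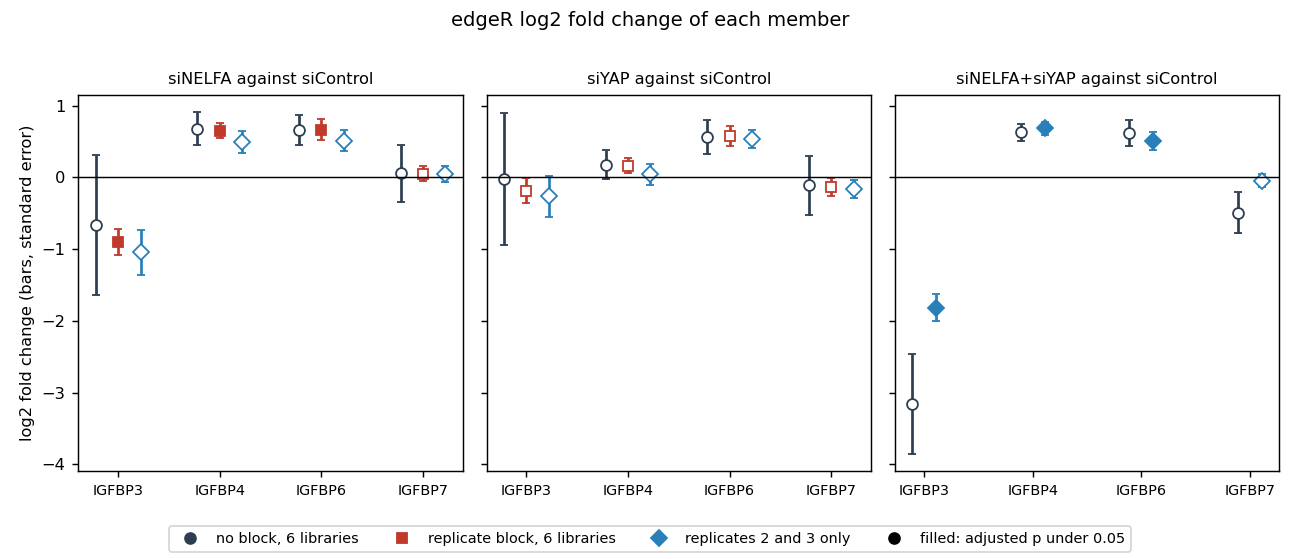
Log2 fold change against siControl of the 4 expressed members in siNELFA, siYAP and siNELFA+siYAP by edgeR, with standard errors, for the 6-library fit, the same fit with the replicate block (first 2 panels) and replicates 2 and 3 only. Filled symbols mark an adjusted p under 0.05, which IGFBP3, IGFBP4 and IGFBP6 reach with the block in siNELFA and in replicates 2 and 3 in the double knockdown.

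In replicates 2 and 3, 8 of the 22 listed IGF system genes (36.4%, against 17.9% of all genes) also passed in the double knockdown, 5 higher and 3 lower, while none passed with all 6 libraries. PLAU rose by 0.90 (SE 0.12, edgeR adjusted p = 4.31e-04), STC1 by 0.59 (SE 0.11, adjusted p = 0.00388) and IGF2R by 0.38 (SE 0.06, adjusted p = 0.00185). IGFBP1, the hepatic binding protein and neighbour of IGFBP3, fell with a log2 fold change of -1.44 (SE 0.24, adjusted p = 0.00218), and IRS2 fell with -0.60 (SE 0.09, adjusted p = 0.00117). SHC1 and LRP1 were the other genes that rose and IGFBPL1 the other that fell.

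The double knockdown was also compared with each single knockdown. Against siYAP, IGFBP3 was at -3.15 (SE 0.81, edgeR adjusted p = 0.176) and IGFBP4 at 0.45 (SE 0.16, adjusted p = 0.265), with no member passing (background 0.0350%) and both under 0.05 unadjusted (background 15.5%). IGFBP4 lay entirely above siYAP, as did 13.9% of genes, and IGFBP3 entirely below, as did 12.6%. In replicates 2 and 3, IGFBP3 was lower, at -1.55 (SE 0.32, adjusted p = 0.0243), and IGFBP4 higher, at 0.65 (SE 0.10, adjusted p = 0.0107), against a background of 7.70%. IGFBP6 did not differ between them beyond its error, at 0.06 (SE 0.16) in all libraries and -0.03 (SE 0.12) in replicates 2 and 3.

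Against siNELFA, no member passed in all libraries (background 0.00573%) or in replicates 2 and 3 (background 0.157%). IGFBP4 was at -0.04 (SE 0.19) and IGFBP6 at -0.02 (SE 0.13) in all libraries, and at 0.20 (SE 0.11) and 0.0051 (SE 0.14) in replicates 2 and 3. IGFBP3 alone was under 0.05 unadjusted (background 6.62%). It was at -2.49 (SE 0.83, edgeR unadjusted p = 0.0180, adjusted p = 0.735) and at -0.76 (SE 0.34, adjusted p = 0.507) in replicates 2 and 3. IGFBP7 lay entirely below siNELFA, as did 7.89% of genes, and was at -0.54 (SE 0.28, adjusted p = 0.735) in all libraries and at -0.08 (SE 0.10, adjusted p = 0.854) in replicates 2 and 3.

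Whether siNELFA acted differently with and without siYAP was tested by edgeR over the 12 libraries, as a difference of the 2 effects. The test was added after the data had been seen, and the limit on the double knockdown libraries applies to it too. It called 0 of 18525 genes at an adjusted p under 0.05 and 326 (1.76%) at an unadjusted one. The difference on the log2 scale was -0.59 for IGFBP6 (SE 0.26, unadjusted p = 0.0465, adjusted p = 1.00), the effect of siNELFA on IGFBP6 being 0.65 on siControl cells and 0.06 on siYAP cells. It was -2.49 for IGFBP3 (SE 1.40, unadjusted p = 0.102), -0.22 for IGFBP4 (SE 0.29) and -0.44 for IGFBP7 (SE 0.55). In replicates 2 and 3 it also called 0 of 19145 genes at an adjusted p and 2.23% at an unadjusted one, with IGFBP6 at -0.54 (SE 0.19, edgeR unadjusted p = 0.0176, adjusted p = 1.00), IGFBP3 at -0.51 (SE 0.52), IGFBP4 at 0.15 (SE 0.20) and IGFBP7 at 0.07 (SE 0.15).

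The genes with the most similar profiles were sought for each member among 12970 genes averaging at least 50 counts, by the root mean square difference of mean-centred log2 CPM over the 12 libraries. For IGFBP3 they were WT1, SOST and ALOX5, at 0.451 to 0.473 against a median of 1.60 over all genes. For IGFBP7 they were SEC24D, ZNF217 and GOLGA2 (0.0747 to 0.0913, median 0.552), for IGFBP4 GPR108, P4HA2 and IER3 (0.0857 to 0.1001, median 0.470), and for IGFBP6 SLC25A11, B3GAT3 and ABHD14A-ACY1 (0.165 to 0.167, median 0.435). The lists of 3 genes did not overlap between members. They depended on the 3 high replicate 1 libraries: without these, 2 of the 12 genes, IER3 and GPR108 for IGFBP4, were still among the nearest 3. In bulk samples such as these, a change of RNA per cell and a change in the share of cells that carry it cannot be told apart.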

How the data were processed

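Total RNA libraries of MDA-MB-231 cells were depleted of ribosomal RNA, made strand-specific and read as pairs by the authors. Reads were aligned to GRCh38 with STAR and assigned to genes with featureCounts, and the deposited counts are reads per gene without normalization. The options of the counting step, strand included, are not given in the sources used here. Counts of 1 to 10 were even in 81.8% to 84.8% of genes with such a count, by library, against 49.8% to 51.3% of counts over 100. The deposited TPM, transcript abundances scaled by length and to one total, were estimated by the authors per library. A further table of 12 per-sample columns (FPKM) was not used. The submitters' notes also name DESeq2.

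Groups came from the labels, which number 3 replicates in each. Counts were compared by edgeR 4.0.16 in R 4.3.3 (quasi-likelihood test, TMM factors, filterByExpr with a minimum count of 10, a minimum total of 15 and a proportion of 70%), on the 6 libraries compared and without a block. Standard errors are the size of the log2 fold change over the square root of F. p-values were adjusted by Benjamini-Hochberg over all genes tested. Deviations from the group mean correlated between libraries of the same number by 0.642 to 0.886 across 12971 genes in the groups other than siNELFA+siYAP, and by -0.0523 to 0.0256 between those and siNELFA+siYAP. Deviations from a group mean sum to 0, so a shared shift of replicate 1 alone can make replicates 2 and 3 correlate. Libraries of different numbers were not compared, so the check cannot show that numbers 2 and 3 pair across groups. The numbers, taken from the titles, were used as a block for siControl and the single knockdowns only. That fit is printed where it changes a call. These correlations are across genes, which are not independent. Alternatives were DESeq2 1.42.0, RLE factors, no filter on low counts, all 12 libraries, and the 9 libraries of siControl, siNELFA and siYAP with the block. Further ones were replicates 2 and 3 only, limma 3.58.1 on log2 of TPM plus 1 or 0.1, and leaving out each library. The fit over 9 libraries without each replicate number in turn, the test of the difference between siNELFA effects, and the profiles without the 3 replicate 1 libraries that stand apart, were added after the data had been seen. The tests were first run on simulated counts.

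The members, the list of 28 further genes of the insulin-like growth factor system and the rule for naming genes were chosen with earlier results of these data known. All members, the siRNA targets and 8 main genes of the system are named, other listed genes only where they passed an adjusted test, and for each member the 3 genes with the nearest profile. The genes overlapping IGFBP7, and MALAT1, were named after their values were seen. Intervals of expression at zero use 3 counts as the limit and cover counting error only. Coordinates are from GENCODE 44 and sequences from RefSeq, both on GRCh38 and of another release than the annotation of the counts.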

Additional observations from a re-analysis of the deposited data

How the results depend on the processing

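In the edgeR fit of the 6 libraries compared, with the filter on low counts and without the replicate block, no member passed an adjusted test in any comparison between groups. Each call on a member therefore rests on another setting. With the replicate block, 3 members passed in siNELFA against siControl (background 5.21%) and 2 in siNELFA against siYAP (15.8%). The 9-library fit with the block gave 3 (6.28%) and 2 (6.57%). The block changed no other call on a member. Replicate numbers 1, 2 and 3 were left in turn out of the 9-library fit with the replicate block. For siNELFA against siControl this gave 3, 2 and 1 members (backgrounds 13.3%, 1.29% and 1.19%). For siNELFA against siYAP it gave 2 without number 1 (14.8%) and 0 otherwise. For siYAP against siControl it gave 1 without number 1 (1.1%) and 0 otherwise. For siNELFA+siYAP against siControl, 2 members passed by DESeq2 (background 2.91%) and 2 without the filter on low counts (1.19%). In replicates 2 and 3 it was 3 (17.9%), and 0 to 3 when single libraries were left out (3 without siControl replicate 1, background 24.4%). For siNELFA+siYAP against siYAP these numbers were 1 (1.58%), 1 (0.695%), 2 (7.7%), and 0 to 2 (2 without siYAP replicate 1, background 16.5%). Of 408 alternative values of the members' differences, 333 kept their direction and side of the threshold, 36 passed where the reported value did not, and 39 changed sign, all from values that had not passed.

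The sign changes were as follows. With log2 TPM plus 1 and plus 0.1, IGFBP7 was at -0.20 and -0.20 in siNELFA against siControl, IGFBP4 at 0.077 and 0.077 and IGFBP6 at 0.068 and 0.069 in siNELFA+siYAP against siNELFA, and IGFBP6 at -0.030 and -0.031 in siNELFA against siYAP. In replicates 2 and 3, IGFBP6 was at -0.028 and IGFBP7 at 0.11 in siNELFA+siYAP against siYAP, IGFBP4 at 0.20 and IGFBP6 at 0.0051 in siNELFA+siYAP against siNELFA, and IGFBP6 at -0.026 in siNELFA against siYAP. For the difference of siNELFA effects with and without siYAP they gave 0.15 for IGFBP4 and 0.065 for IGFBP7. With all 12 libraries, IGFBP3 in siYAP against siControl was at 3.27e-05. In the 9-library fit with the block, IGFBP3 in siYAP against siControl was at 0.054 and IGF1R in siNELFA against siControl at 0.0064 without replicate 3, and IGFBP6 in siNELFA against siYAP at -0.034 without replicate 1. Without single libraries, siNELFA against siControl ran from -2.26 to 0.55 for IGFBP3, -0.38 to 0.48 for IGFBP7 and -0.55 to 0.053 for PAPPA. siYAP against siControl ran from -1.47 to 1.20 for IGFBP3 and -0.58 to 0.32 for IGFBP7. siNELFA+siYAP ran from -0.063 to 0.16 for IGFBP6 and -0.61 to 0.10 for IGFBP7 against siYAP, and from -0.21 to 0.18 for IGFBP4 and -0.12 to 0.048 for IGFBP6 against siNELFA. siNELFA against siYAP ran from -2.24 to 0.81 for IGFBP3, -0.039 to 0.19 for IGFBP6, -0.27 to 0.64 for IGFBP7 and -0.89 to 0.32 for CTSD. For IGFBP3 the extremes came from leaving out a replicate 1 library. The cause of these changes was not tested.

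Counts over all genes moved more. siNELFA against siControl had 1 call, 17 by DESeq2, 924 with the replicate block and 1142 in the 9-library fit with it, and siYAP against siControl 1, 1, 3 and 34. siNELFA against siYAP had 2, 27, 2721 and 1195. siNELFA+siYAP against siControl had 75 calls, 935 by DESeq2, 381 without the filter, 2 with the block, 11 and 23 by log2 TPM, 3259 in replicates 2 and 3 and 4531 without siControl replicate 1. Against siYAP it had 6, 504, 222, 1, 1 and 10, 1349 and, without siYAP replicate 1, 2937. Against siNELFA it had 1, 49, 26, 1, 2 and 6, 28 and, without siNELFA replicate 1, 228. Depth limits the statements on IGFBP2 and IGFBP5.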
